A study of Mus musculus with 8 samples.

Results

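Ribosome biogenesis genes encode the nucleolar factors that transcribe, modify, cut and fold ribosomal RNA and assemble it with ribosomal proteins into the small and large subunits. The 43 genes chosen here are nucleolar factors of ribosome assembly and rRNA processing, listed by function. Of these, 42 had a row in a table of raw read counts for 33435 genes, and Noc2l is not analysed here. All 42 passed the filter on low counts, among 11040 genes tested, Heatr1 and Noc3l through the Trim27 libraries only. The libraries came from mouse myeloid progenitors. They had been sorted after viral infection of blood stem and progenitor cells of the fetal liver (strain C57BL/6J, day 14.5 of gestation). The 4 Trim27 libraries came from cells infected with a virus carrying Trim27, and the 4 GFP libraries from cells infected with a GFP control virus. Both groups were therefore virus-infected cells of 1 strain. The labels give neither the promoter of the virus nor whether replicates are separate animals or cultures, and p-values therefore cover the spread among these libraries alone, which could be technical.

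As background, ribosome assembly begins on the nascent transcript of RNA polymerase I. Small nucleolar ribonucleoproteins (snoRNPs) of the box C/D class guide methylation of the RNA, and those of the box H/ACA class guide pseudouridylation. The small subunit processome, which contains the U3 snoRNP, forms on the early part of the transcript, while separate factors such as the PeBoW complex build the large subunit. Proliferating hematopoietic progenitors make many ribosomes, and Myc is a known activator of these genes.

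Total counts ranged from 10551137 to 16366571 in the Trim27 libraries and from 9257889 to 10747794 in the GFP libraries. Genes with at least 1 count numbered 12962 to 13283 in the Trim27 libraries and 11131 to 11850 in the GFP libraries. Trim27 itself was at 292.7 ± 18.4 CPM (counts scaled to a common library size) in the Trim27 group and 180.5 ± 8.52 CPM in the GFP group (SD, n = 4 each). Libraries of 1 group had correlations of 0.979 to 0.993 across genes, which are not independent replicates, while libraries of different groups had 0.704 to 0.727. Cytosolic ribosomal protein genes took 19.0% ± 0.354 of all counts in the Trim27 group and 26.8% ± 0.0574 in the GFP group. All 12 markers of myeloid progenitors were detected, and 2 rose and 9 fell, while their summed level was 2370 to 2590 CPM in Trim27 libraries and 2190 to 2300 CPM in GFP libraries. Of 10 B lineage markers, 9 were tested, of which 6 fell and 0 rose by edgeR's quasi-likelihood test (summed 41.1 to 56.2 CPM in Trim27 libraries and 66.6 to 161 CPM in GFP libraries). Among all tested genes 47.5% rose and 38.0% fell. The 8 erythroid markers in the table summed to 1330 to 1520 CPM in Trim27 libraries and 1810 to 1870 CPM in GFP libraries. Their directions were divided, with 3 rises and 5 falls. Of 9 macrophage markers, 6 were at 0 in every library, and the list summed to 22.9 to 33.9 CPM in Trim27 libraries and 0 to 1.2 CPM in GFP libraries. The 5 megakaryocyte markers, of which 2 rose and 3 fell, summed to 764 to 792 CPM in Trim27 libraries and 979 to 1070 CPM in GFP libraries. The 5 T and NK cell markers, with Ncr1 at 0 throughout, summed to 1.99 to 3.06 CPM in Trim27 libraries and 27.9 to 30.3 CPM in GFP libraries. Of 10 hepatocyte markers 8 were at 0 in every library, Alb among them, and the list summed to 14.3 to 16.4 CPM in Trim27 libraries and 1.2 to 1.7 CPM in GFP libraries. Of 6 endothelial and stromal markers 5 were at 0 throughout. The part of these marker lists in the results below was not tested. In such bulk libraries, fewer cells of a type and less RNA per cell cannot be told apart.

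The nucleolar genes did not change in 1 direction. Of the 42, 18 rose, 19 fell and 5 did not pass (edgeR's quasi-likelihood test, Benjamini-Hochberg adjusted p under 0.05 over all genes tested). Among all tested genes 85.5% passed, 47.5% as rises and 38.0% as falls, so that the shares among the nucleolar genes, 42.9% and 45.2%, were near the background. With library size alone as scaling, 23 rose and 11 fell, and after removal of the length trend (each library's dependence on transcript length), 12 rose and 24 fell. Their median log2 fold change was -0.039, against 0.14 for all tested genes and -0.24 for the 2557 tested genes that averaged 6 log2 CPM or more. The groups did not overlap for 33 of the 42, with Trim27 libraries higher for 15 and lower for 18, where 45.3% and 35.4% of all tested genes did so (80.7% in either direction). Rises of at least 2-fold were found for 5 of the 42, against 31.3% of all tested genes. Heatr1 and Noc3l are among these rises. Both had to be higher to be tested. They are among 2123 tested genes that reached the filter's cutoff in all Trim27 libraries but not in all GFP libraries. For such genes the filter favours a rise.

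Together the 42 genes took 1.40% ± 0.0406 of all counts in the Trim27 group and 1.06% ± 0.0256 in the GFP group (SD, n = 4 each, unscaled shares). Much of this share was Npm1, which alone took 0.575% ± 0.0487 in the Trim27 group and 0.338% ± 0.0249 in the GFP group. Without Npm1, the other genes took 0.826% ± 0.00832 in the Trim27 group and 0.722% ± 0.00117 in the GFP group. That order turned on the TMM scale, where the genes other than Npm1 summed to 7444 ± 156 CPM in the Trim27 group and 8028 ± 65.0 CPM in the GFP group.

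**Figure D1:**
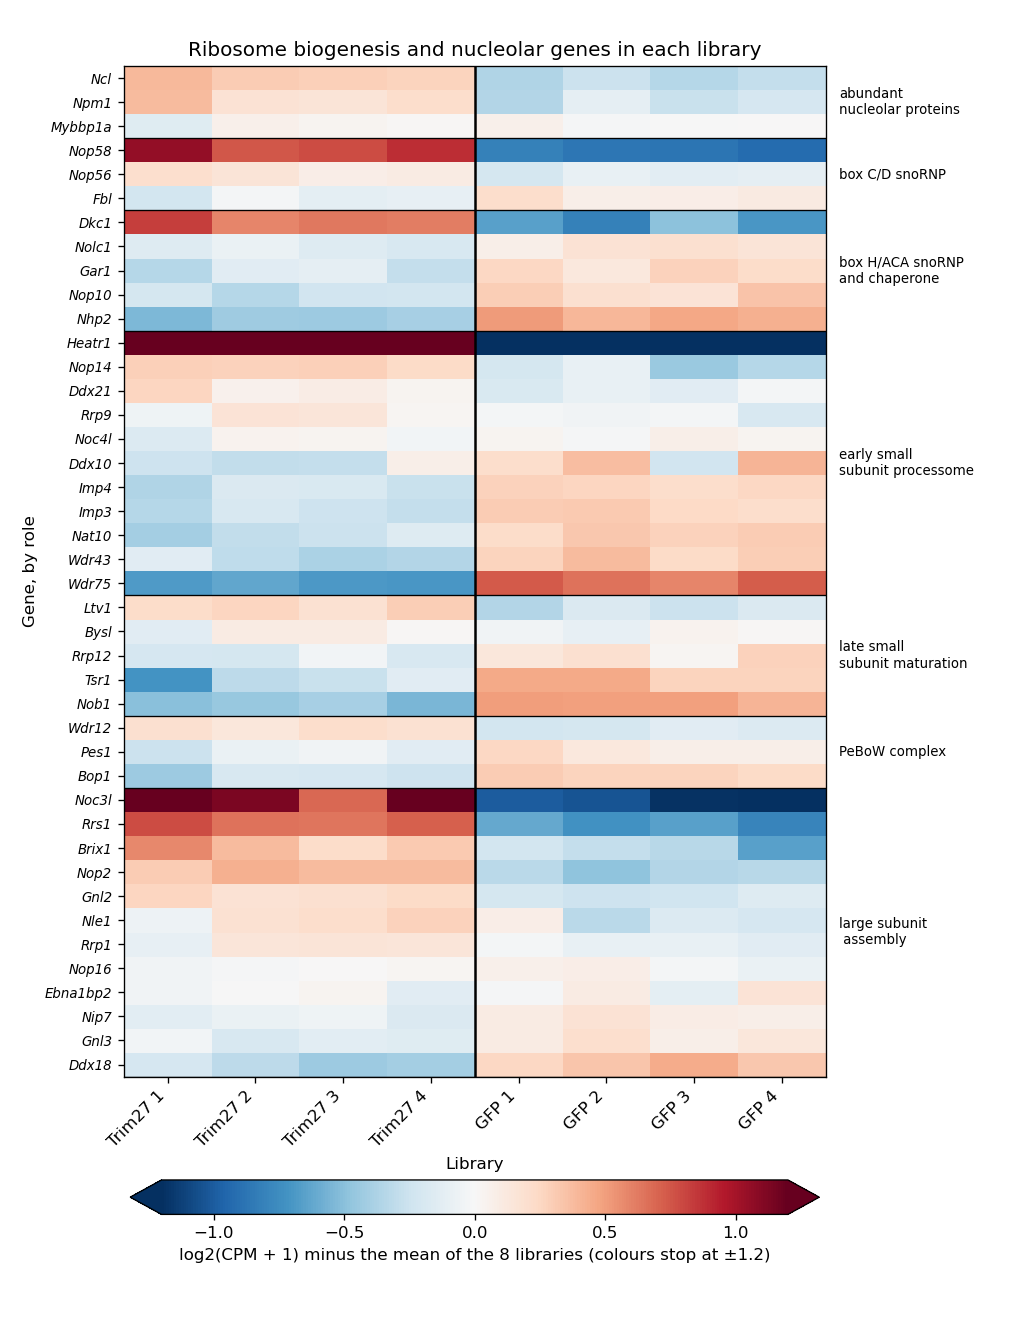
Level of each nucleolar gene (rows, by role) in each library (columns, Trim27 libraries left of GFP libraries), as log2(CPM + 1) minus the mean of the 8 libraries. Red and blue rows occur side by side in the same complex, as for Nop58 and Fbl, Dkc1 and Nhp2, or Heatr1 and Wdr75, and libraries of 1 group resemble each other.

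Of the 3 abundant nucleolar proteins, Ncl and Npm1 rose and Mybbp1a did not pass. Npm1, nucleophosmin, a chaperone and scaffold of the outer nucleolus, was by far the most abundant of the 42. Its levels were 5743, 4965, 4914 and 5083 CPM in Trim27 replicates 1 to 4 and 3460, 4082, 3667 and 3824 CPM in GFP replicates 1 to 4. Every Trim27 library lay above every GFP library, and replicate 1 stood highest among the Trim27 libraries. The log2 fold change was 0.46 (SE 0.05, adjusted p = 5.09e-09). Nucleolin (Ncl), an RNA-binding protein needed for transcription and first processing of pre-rRNA, had 577.9, 545.3, 535.9 and 531.0 CPM in the Trim27 libraries and 342.3, 367.5, 347.8 and 360.3 CPM in the GFP libraries. These groups were also apart, by a log2 fold change of 0.63 (SE 0.05, adjusted p = 3.29e-13). With the length trend removed the Ncl value turned to -0.14 (adjusted p = 0.0111), on an annotated transcript of 8202 bases. Mybbp1a, a nucleolar protein first found as a partner of Myb, was at 490.0 ± 30.3 CPM in the Trim27 group and 497.1 ± 12.5 CPM in the GFP group, and its log2 fold change was -0.02 (adjusted p = 0.696). It was called in opposite directions under other settings, at 0.28 under library size alone (adjusted p = 1.55e-06) and at -0.58 with the length trend removed (adjusted p = 1.84e-11).

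The box C/D core proteins split. Nop58, a scaffold on which the guide RNA is held, had 171.8, 138.5, 141.8 and 152.8 CPM in Trim27 replicates 1 to 4 and 46.4, 44.6, 44.2 and 42.9 CPM in GFP replicates 1 to 4. Every Trim27 library was far above the GFP libraries, which were close to each other. Nop58 rose 3.4-fold (log2 fold change 1.76, SE 0.07, adjusted p = 1.84e-19). Its partner Nop56 had 637.1, 617.6, 585.6 and 594.0 CPM in the Trim27 libraries and 477.3, 522.2, 506.5 and 515.4 CPM in the GFP libraries, a smaller rise of 0.27 (SE 0.05, adjusted p = 5.12e-06). Exons of Nop56 overlap those of Idh3b on the opposite strand. Fibrillarin (Fbl), the methyltransferase of the same particle, fell by 0.23 (adjusted p = 0.000201), to 178.3 ± 9.57 CPM in the Trim27 group, against 209.5 ± 9.57 CPM in the GFP group. The fall of Fbl was lost under library size alone (0.07, adjusted p = 0.184).

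In the box H/ACA particle, the enzyme rose and its 3 partners fell. Dyskerin (Dkc1), the pseudouridine synthase that is mutated in dyskeratosis congenita and also binds telomerase RNA, had 90.4, 76.3, 78.6 and 77.9 CPM in Trim27 replicates 1 to 4 and 31.9, 28.3, 35.5 and 30.7 CPM in GFP replicates 1 to 4. All Trim27 libraries were above all GFP libraries (2.56-fold, log2 fold change 1.36, SE 0.08, adjusted p = 1.64e-15). Nhp2, which helps place the guide RNA on the enzyme, had 428.5, 464.2, 462.4 and 474.0 CPM in the Trim27 libraries and 891.0, 822.7, 860.1 and 836.4 CPM in the GFP libraries. Here the order was the opposite, with a 1.86-fold lower level (log2 fold change -0.90, SE 0.05, adjusted p = 6.95e-17). Nop10 (-0.51) and Gar1 (-0.44), the other core proteins, and the snoRNP chaperone Nolc1 (-0.29) fell less, and the groups did not overlap for any of them. The fall of Gar1 was lost under library size alone and that of Nolc1 turned to 0.0088 there, also without a call. Removal of the length trend fitted on abundant genes also ended the Gar1 call (-0.14, adjusted p = 0.0747). Exons of Dkc1 and Nhp2 overlap those of Mpp1 and Rmnd5b on the opposite strand.

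**Figure D2:**
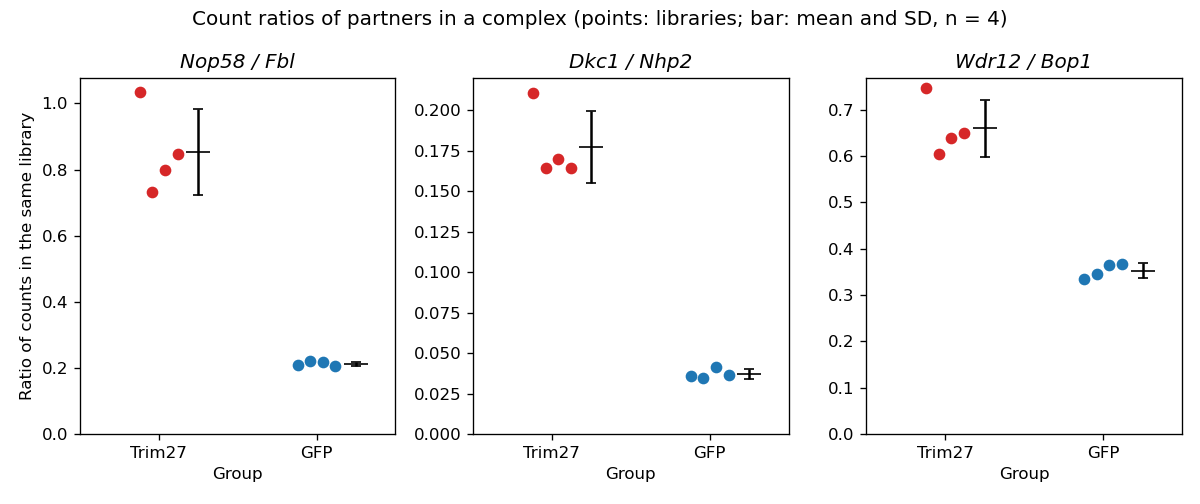
Ratio of counts of 2 partners in the same library (points), with the mean and SD of 4 libraries beside them, for Trim27 and GFP libraries. Nop58 over Fbl lies at 0.731 to 1.03 in Trim27 libraries and 0.206 to 0.22 in GFP libraries, and the other 2 ratios are apart in the same way.

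A ratio of 2 genes within a library does not depend on how libraries are scaled to each other. It still carries the length trend where the 2 transcripts differ in length. With that trend removed, Dkc1 was at a log2 fold change of 0.93 and Nhp2 at -0.74. Among the 3 small complexes (box C/D, box H/ACA without Nolc1, and PeBoW) 12 pairs of partners were compared by an exact permutation test. This comparison was chosen after these values had been seen, so its p-values are no support. The groups did not overlap for 11 of the 12, each at the smallest p possible, 0.0286 (adjusted p = 0.0312). Among all pairs of the 9380 tested genes with a count in every library, 75.9% did not overlap either, so that most pairs of genes shifted in this way. The largest shift was Dkc1 over Nhp2, with 0.177 ± 0.0225 counts of Dkc1 per count of Nhp2 in the Trim27 group and 0.0371 ± 0.00298 in the GFP group (SD, n = 4 each). Nop58 over Fbl was at 0.853 ± 0.13 in the Trim27 group and 0.213 ± 0.00681 in the GFP group. The exception was Gar1 over Nop10, at 0.77 ± 0.0848 in the Trim27 group and 0.733 ± 0.053 in the GFP group (log2 difference 0.07, exact permutation p = 0.543). These are shifts in relative counts, and they show only that partners changed unequally.

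The early small subunit processome held the strongest change of the 42 and also the largest fall. Of its 11 genes, 4 rose, 6 fell and 1 did not pass. Heatr1, the counterpart of yeast Utp10, belongs to the first subcomplex to bind the pre-rRNA. It had 944, 947, 1022 and 690 counts in Trim27 replicates 1 to 4 and 13, 0, 6 and 4 counts in GFP replicates 1 to 4. That is 56.8, 57.0, 56.4 and 58.6 CPM in the Trim27 libraries, and 1.48, 0, 0.717 and 0.411 CPM in the GFP libraries, where a count of 0 allows up to 3 counts or 0.319 CPM. The Trim27 libraries were nearly equal to each other, while the transcript, like others named below, was close to undetected in the GFP group. Over the group sums of 3603 counts in the Trim27 group and 23 counts in the GFP group the scaled ratio was 89.9 (95% exact counting interval 59.8 to 142, which covers counting error only). Heatr1 passed the filter through the Trim27 libraries only, so it had to be higher there to be tested, and its p-value is no further support. The fitted log2 fold change was 6.47 (SE 0.22, adjusted p = 2.02e-18). It was 7.26 without GFP replicate 1, which held most of the GFP counts, 6.04 without GFP replicate 2, 7.15 under limma-voom and 5.73 with the length trend removed.

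Wdr75 and Wdr43, the counterparts of yeast Utp17 and Utp5, are placed in the same subcomplex as Heatr1. Wdr75 had 28.4, 29.5, 28.1 and 28.0 CPM in the Trim27 libraries and 77.0, 72.6, 69.4 and 76.5 CPM in the GFP libraries. Each group was tight and the groups lay far apart (2.59-fold lower, log2 fold change -1.37, SE 0.07, adjusted p = 1.63e-16). Wdr43 fell by 0.59 on the log2 scale (adjusted p = 2.61e-10). Imp3 and Imp4, proteins of the U3 snoRNP that bring it to the pre-rRNA, fell by 0.54 and 0.49. Imp4, among the 5 most abundant of the 42, had 421.2, 478.6, 476.3 and 450.7 CPM in the Trim27 libraries and 655.3, 646.5, 628.8 and 641.9 CPM in the GFP libraries. These groups did not overlap either. Exons of Imp4 overlap those of Gm28306 on the opposite strand. The U3 protein gene Rrp9 went the other way by a small amount (0.14, adjusted p = 0.0185), with libraries that overlapped, and was at -0.007 with the length trend removed (adjusted p = 0.91). Leaving out 1 library ended that call 4 times, at 0.10 without GFP replicate 4, and at 0.076, 0.084 and 0.13 without Trim27 replicates 2, 3 and 4 (adjusted p = 0.118, 0.218, 0.196 and 0.0564).

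The remaining processome genes were also divided. The assembly factor Nop14 rose by 0.54 and the RNA helicase Ddx21 by 0.22, while the cytidine acetyltransferase Nat10 (-0.57) and the helicase Ddx10 (-0.44) fell. With the length trend removed the Ddx21 call turned to -0.40 (adjusted p = 2.96e-07) and the Nop14 call was lost (0.13, adjusted p = 0.112). The Ddx10 call was lost under library size alone (-0.13, adjusted p = 0.403). Noc4l, which pairs with Nop14, was at 220.0 ± 14.3 CPM in the Trim27 group and 229.0 ± 5.2 CPM in the GFP group and did not pass (adjusted p = 0.307). It was called at 0.25 under library size alone and at -0.34 with the length trend removed.

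Late small subunit factors, which act on the small subunit precursor on its way to the cytoplasm, had 1 rise and 3 falls among 5. Nob1, the endonuclease that makes the final cut at the end of the small subunit rRNA, had 165.6, 170.9, 178.4 and 160.5 CPM in the Trim27 libraries and 333.7, 331.8, 329.9 and 312.8 CPM in the GFP libraries. Levels were thus 1.94-fold lower with the Trim27 virus (log2 fold change -0.95, SE 0.05, adjusted p = 9.73e-17). Tsr1, a GTPase-like factor of the same particle, was scarce, with 7.4, 10.2, 10.5 and 11.6 CPM in the Trim27 libraries and 17.9, 18.0, 15.7 and 15.6 CPM in the GFP libraries. The groups stayed apart (log2 fold change -0.77, SE 0.14, adjusted p = 1.64e-05), although the exons of Tsr1 overlap Srr on the opposite strand. Rrp12, an export factor, fell by 0.32, a call that was lost under library size alone (-0.02). Ltv1, which must leave the particle before its last maturation steps, rose by 0.48 (SE 0.06, adjusted p = 8.86e-09), with 131.6 ± 4.26 CPM in the Trim27 group and 94.2 ± 5.36 CPM in the GFP group. Its libraries had 129.7, 133.4, 126.7 and 136.5 CPM in Trim27 replicates 1 to 4 and 87.2, 98.4, 92.8 and 98.3 CPM in GFP replicates 1 to 4, without overlap. Bysl did not pass (0.05, adjusted p = 0.444), and was called at 0.35 under library size alone and at -0.47 with the length trend removed.

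PeBoW, a complex of Pes1, Bop1 and Wdr12 that is needed for maturation of the large subunit rRNA, changed in both directions. Bop1 had 435.6, 517.4, 514.2 and 497.0 CPM in the Trim27 libraries and 729.3, 708.4, 709.2 and 691.2 CPM in the GFP libraries. It was lowest in Trim27 replicate 1, and no libraries overlapped (log2 fold change -0.53, SE 0.05, adjusted p = 7.34e-11). Wdr12 had 325.2, 312.1, 327.9 and 322.8 CPM in the Trim27 libraries and 243.8, 244.4, 258.9 and 253.8 CPM in the GFP libraries, a rise of 0.36 (SE 0.05, adjusted p = 3.63e-08). That rise was lost with the length trend removed (-0.09, adjusted p = 0.0855). Pes1 fell by 0.26, and was at 0.04 (adjusted p = 0.485) under library size alone. Exons of Bop1 and Pes1 overlap those of Mroh1 and 4930556J24Rik on the opposite strand.

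Of 12 large subunit assembly factors, 7 rose, 3 fell and 2 did not pass. Rrs1, which helps bring a small rRNA and its proteins into the large subunit precursor, had 48.7, 44.5, 44.1 and 46.4 CPM in the Trim27 libraries and 17.8, 16.5, 17.3 and 15.6 CPM in the GFP libraries. It rose 2.73-fold with no overlap (log2 fold change 1.45, SE 0.09, adjusted p = 7.87e-15). Nop2, an rRNA methyltransferase long known as a proliferation antigen, had 209.7, 228.2, 220.1 and 220.3 CPM in the Trim27 libraries and 135.4, 120.6, 132.8 and 134.7 CPM in the GFP libraries (log2 fold change 0.75, SE 0.05, adjusted p = 1.15e-13). Noc3l, which acts on early large subunit particles, had 149, 106, 80 and 88 counts in the Trim27 libraries and 6, 6, 4 and 2 counts in the GFP libraries. It was rare in both groups yet apart, with a scaled ratio of 13.5 (95% exact counting interval 8.43 to 23.0) and a fitted log2 fold change of 3.74 (SE 0.35, adjusted p = 3.84e-11). Like Heatr1, Noc3l had to be higher in the Trim27 libraries to pass the filter, so its p-value is no further support. Brix1 rose by 0.77, Gnl2 by 0.43, Nle1 by 0.31 and Rrp1 by 0.18. The Rrp1 call was lost without Trim27 replicate 3 (0.12, adjusted p = 0.0552). With the length trend removed the calls of Gnl2 (0.077, adjusted p = 0.355), Nle1 (0.097, adjusted p = 0.387) and Rrp1 (-0.081, adjusted p = 0.175) were lost. By contrast the helicase Ddx18 (-0.68), the nucleostemin gene Gnl3 (-0.25) and Nip7 (-0.21) fell. Under library size alone Gnl3 (0.052, adjusted p = 0.364) and Nip7 (0.089, adjusted p = 0.1) were not called. Nip7 was a called rise with the length trend removed (0.26, adjusted p = 6.24e-05) and with that trend fitted on abundant genes (0.46, adjusted p = 3.98e-09). Nop16 (-0.02, adjusted p = 0.739) and Ebna1bp2 (-0.07, adjusted p = 0.259) did not pass. Under library size alone both were called rises (0.28 and 0.23), and with the length trend removed Nop16 was called at 0.31 and Ebna1bp2 at -0.51.

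**Figure D3:**
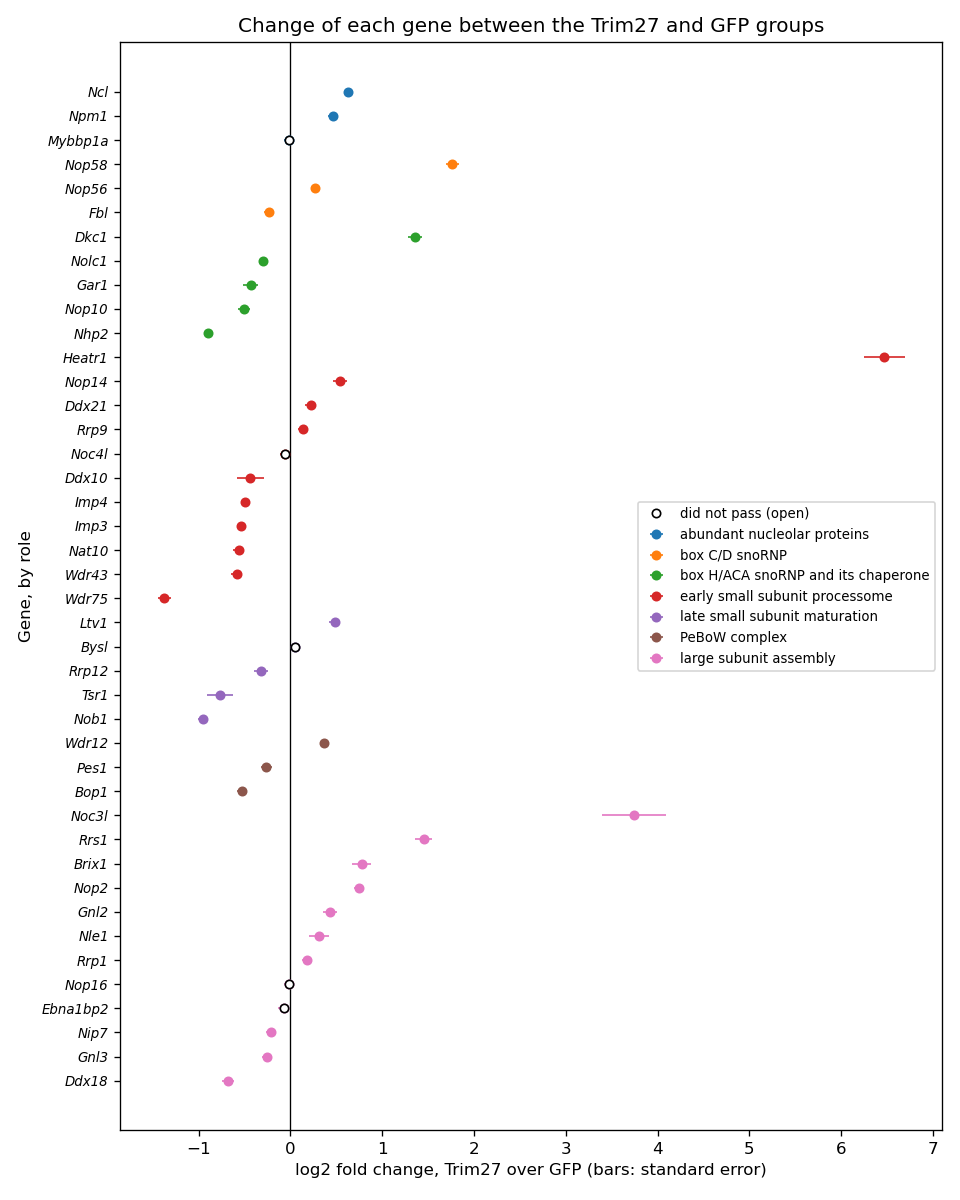
Log2 fold change of each nucleolar gene, Trim27 over GFP (points, with standard error), in colours by role. Open points did not pass. Heatr1 at 6.47 and Noc3l at 3.74 stand apart to the right, and every role but the abundant proteins has called points on both sides of 0 under TMM scaling. Under library size alone box C/D had no fall, and with the length trend removed PeBoW had no rise.

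Other genes of ribosome production also had calls in both directions. Of 14 tested genes of RNA polymerase I and its factors, 6 rose and 7 fell. Twistnb, a subunit of the polymerase, rose to 53.2 ± 4.37 CPM in the Trim27 group, against 4.64 ± 0.763 CPM in the GFP group (log2 fold change 3.52, SE 0.12, adjusted p = 9.91e-21). Polr1b, a catalytic subunit, fell to 41.8 ± 3.82 CPM in the Trim27 group, against 99.3 ± 10.4 CPM in the GFP group (-1.25), and Taf1c, a subunit of its promoter factor, fell as well (-2.11). Of 44 other small subunit factors, 22 rose and 17 fell. Cirh1a, the counterpart of yeast Utp4 and a further protein of the subcomplex of Heatr1, rose by 2.83 and Utp18 by 1.77, while Ngdn fell by 1.48. Heatr1 was not alone in being near 0 in the GFP group. Mphosph10 was at 31.7 ± 2.92 CPM in the Trim27 group and 0.1085 ± 0.126 CPM in the GFP group. Ddx51, a large subunit factor, was at 44.9 ± 1.12 CPM in the Trim27 group and 1.14 ± 0.384 CPM in the GFP group. Lower than Ddx51 in the GFP group were also Utp23 (1.11 CPM), Spata5 (0.592 CPM), Ttf1 (0.475 CPM) and Taf1b (0.425 CPM). In the Trim27 group these were at 22.3, 23.6, 8.07 and 5.62 CPM. No tested gene of the further lists was as low in the Trim27 group, but the filter on low counts bears on this comparison. A gene near 0 in the GFP group could be tested only if it was higher in the Trim27 group. Over all tested genes, 2123 passed the filter through the Trim27 libraries only and 440 through the GFP libraries only.

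Of 49 other large subunit factors, 26 rose and 14 fell, with 23 falls when the length trend was removed. The methyltransferase Ftsj3 (1.47) and Pak1ip1 (1.29) rose and the kinase Nol9 (-1.56) fell. Of 26 genes of snoRNP assembly and the processing exonucleases, 14 rose and 8 fell. Naf1 and Shq1, which both assemble the box H/ACA particle around dyskerin, fell. Naf1 was at 8.26 ± 1.09 CPM in the Trim27 group and 45.6 ± 5.58 CPM in the GFP group (-2.45, adjusted p = 8.65e-18). Shq1 was at 12.7 ± 0.903 CPM in the Trim27 group and 64.5 ± 1.1 CPM in the GFP group (-2.34, adjusted p = 4.83e-20). The exosome nuclease Exosc10 rose by 1.60. The shares that rose, 42.9% to 53.8% over the 4 lists, were near the 47.5% of all tested genes. The falls, 7 of 14, 17 of 44, 14 of 49 and 8 of 26, varied more around the 38.0% of all tested genes.

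**Figure D4:**
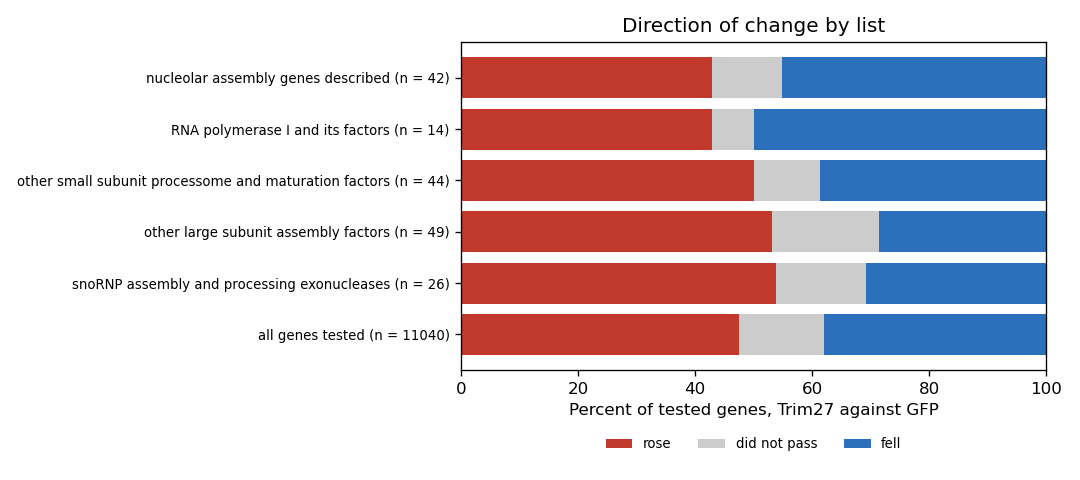
Percent of the tested genes of each list that rose (red), did not pass (grey) or fell (blue) in Trim27 against GFP libraries. The red parts of the bars lie near that of all 11040 genes tested, while the blue parts differ more between lists.

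The background differed with abundance. At a mean of 8 to 10 log2 CPM, 5 of 10 nucleolar genes rose, against 22.9% of the other tested genes in that range. From 6 to 8 log2 CPM, 4 of 18 nucleolar genes rose, against 32.3% of the others, and from 4 to 6 log2 CPM, 6 of 9 rose, against 43.4%. At 10 log2 CPM or more, Npm1 stood against 11.8% of the others that rose. Below 4 log2 CPM, 58.4% of the others rose. For a low gene that passed the filter through 1 group only, however, the filter favours a higher level in that group. Of the genes in that range 2123 passed through the Trim27 libraries only, Heatr1 (mean 2.38 log2 CPM) and Noc3l (0.93 log2 CPM) among them, and 440 through the GFP libraries only.

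The calls depended on scaling, or on removal of the trend with annotated transcript length, for 21 of the 42. Under 21 other settings, 10 genes were past the threshold and higher in every setting that tested them. They were Npm1, Nop56, Nop58, Nop2, Dkc1, Rrs1, Heatr1, Noc3l, Brix1 and Ltv1. Heatr1 and Noc3l had to be higher in the Trim27 libraries to pass the filter on low counts. Another 11 were always lower and past the threshold, namely Nop10, Nhp2, Bop1, Wdr43, Wdr75, Nat10, Ddx18, Tsr1, Imp3, Imp4 and Nob1. The other 21 lost a call, gained one or turned in at least 1 setting. Library size alone moved the median of all tested genes from 0.14 to 0.44, and the removal of the length trend moved it to -0.026. When the test asked for more than a 1.5-fold change, Nop58, Nop2, Dkc1, Rrs1, Heatr1, Noc3l and Brix1 passed as higher and Wdr75, Nob1, Nhp2 and Ddx18 as lower.

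**Figure D5:**
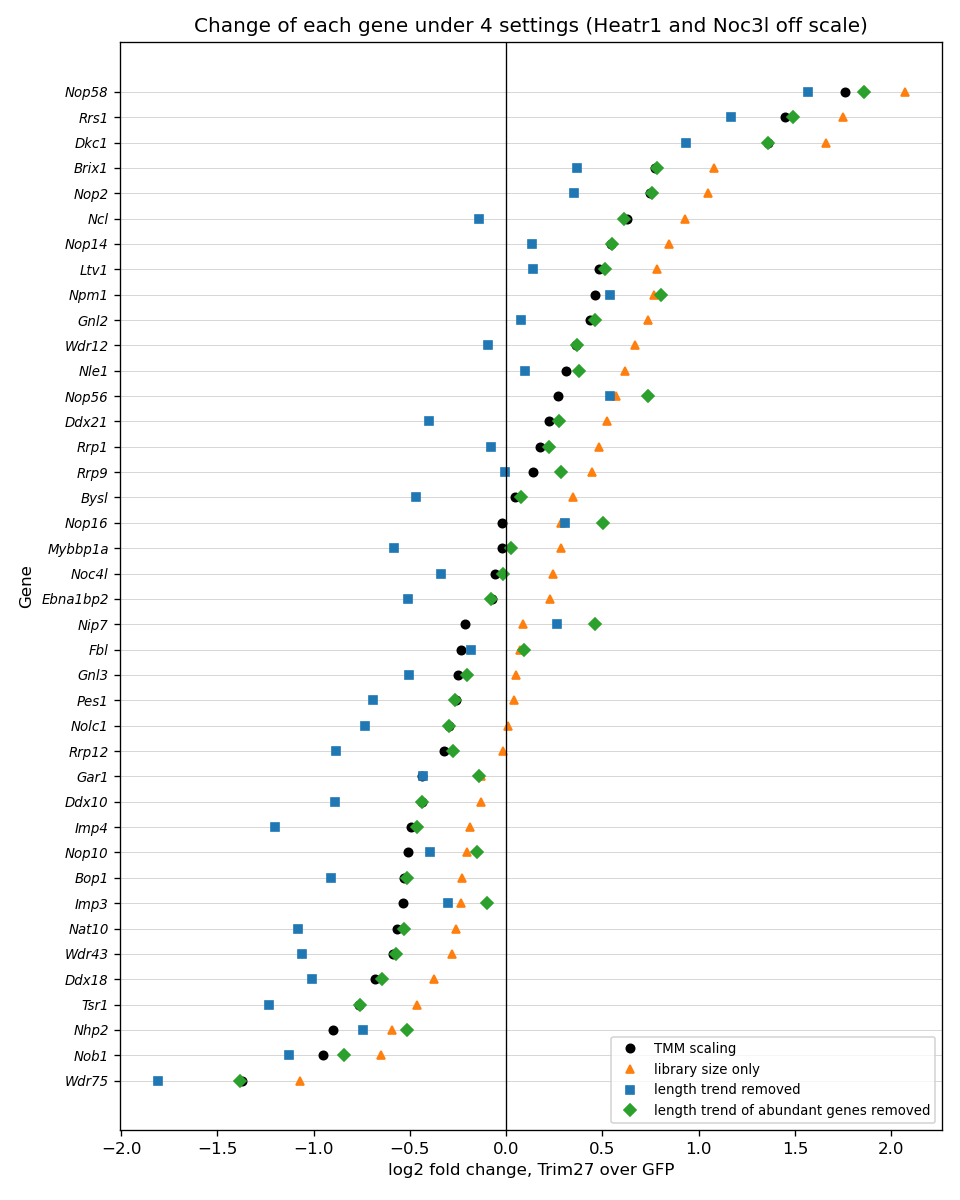
Log2 fold change of the nucleolar genes other than Heatr1 and Noc3l under TMM scaling (black), library size alone (orange), the length trend removed (blue) and the length trend of abundant genes removed (green). Heatr1 and Noc3l are beyond the axis. The genes with a point on either side of 0 run from Nolc1 at -0.29 to Ncl at 0.63 under TMM scaling, and others in that range, such as Npm1 at 0.46, stay on 1 side.

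In the GENCODE annotation, 7 of the 42 genes hold snoRNA genes between their start and end on the same strand (Ncl, Nop56, Nop58, Dkc1, Wdr43, Gnl3 and Tsr1). Of these hosts 4 rose and 3 fell (median log2 fold change 0.27), and of the other 35 genes 14 rose and 16 fell (median -0.06). Exons of 13 of the 42 overlap another gene on the opposite strand. They are Nop56, Nhp2, Dkc1, Nop14, Bop1, Pes1, Gnl3, Gnl2, Tsr1, Bysl, Mybbp1a, Nle1 and Imp4. The 29 without overlap had 13 rises and 13 falls.

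RefSeq promoter windows, from 250 bases before to 50 bases after the start of the gene (GRCm38.p6), were matched for 36 of the 42. The E-box CACGTG, the sequence to which Myc and Max bind, was in the windows of 8 of the 36 genes (22.2%). Over all 27025 genes with a window, tested here or not, the share was 8.09%. No share over the tested genes alone was taken. CACGTG reads the same on both strands. CCGGAAG, a core of ETS factor sites, searched on both strands, was in 12 of the 36 (33.3%), against 9.93% of the same 27025. In the windows of 115 genes of the other lists of ribosome production, CACGTG was in 17.4% and CCGGAAG in 46.1%. Of the 8 genes with CACGTG 3 rose and 4 fell (median -0.14), and of the 28 without it 12 rose and 12 fell (median -0.04). The stretches printed below run from 130 bases before to 30 bases after the start, on the strand of the gene, with CACGTG in capitals. Nop2 rose and Imp4, Wdr43 and Tsr1 fell, all with the E-box, while Nop58, Dkc1, Heatr1 and Nhp2, with some of the largest changes of the 42, have none in their windows.
Nop2 (chr6:125131753-125131912, plus strand, rose): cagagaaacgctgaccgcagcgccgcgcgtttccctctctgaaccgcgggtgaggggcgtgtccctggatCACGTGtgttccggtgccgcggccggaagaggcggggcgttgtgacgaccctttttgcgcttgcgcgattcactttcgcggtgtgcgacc
Imp4 (chr1:34439699-34439858, plus strand, fell): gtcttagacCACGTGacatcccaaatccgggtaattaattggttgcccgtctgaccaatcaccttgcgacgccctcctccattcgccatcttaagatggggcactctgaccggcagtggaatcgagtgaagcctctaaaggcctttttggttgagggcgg
Wdr43 (chr17:71616085-71616244, plus strand, fell): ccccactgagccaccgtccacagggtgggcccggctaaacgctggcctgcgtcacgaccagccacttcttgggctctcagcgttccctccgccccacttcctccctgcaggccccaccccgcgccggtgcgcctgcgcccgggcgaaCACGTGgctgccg
Tsr1 (chr11:74897950-74898109, plus strand, fell): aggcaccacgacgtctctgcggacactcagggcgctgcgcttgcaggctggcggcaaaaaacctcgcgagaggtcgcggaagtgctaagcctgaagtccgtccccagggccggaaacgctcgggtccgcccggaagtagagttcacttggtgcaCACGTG
Nop58 (chr1:59684876-59685035, plus strand, rose): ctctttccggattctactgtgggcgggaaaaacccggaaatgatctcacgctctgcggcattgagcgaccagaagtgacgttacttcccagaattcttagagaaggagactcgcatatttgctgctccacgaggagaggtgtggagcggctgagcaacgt
Dkc1 (chrX:75095724-75095883, plus strand, rose): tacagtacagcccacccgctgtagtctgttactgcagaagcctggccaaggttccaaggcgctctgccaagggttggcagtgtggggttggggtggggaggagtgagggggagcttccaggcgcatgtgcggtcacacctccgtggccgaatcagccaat
Heatr1 (chr13:12395245-12395404, plus strand, rose): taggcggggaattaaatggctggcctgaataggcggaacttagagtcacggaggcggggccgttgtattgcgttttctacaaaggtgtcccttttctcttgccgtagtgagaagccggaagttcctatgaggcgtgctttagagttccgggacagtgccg
Nhp2 (chr11:51619643-51619802, plus strand, fell): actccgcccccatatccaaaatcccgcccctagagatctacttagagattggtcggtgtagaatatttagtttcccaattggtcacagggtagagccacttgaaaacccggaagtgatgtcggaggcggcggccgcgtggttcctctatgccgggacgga

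In these sequences the E-box sits 121 bases before the start in Imp4 and 60 bases before it in Nop2, whereas in Wdr43 and Tsr1 it lies after the start.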

How the data were processed

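The deposited table holds raw counts by gene symbol, 1 column per library. HISAT2, featureCounts, bcl2fastq and the build NCBIM37 are named in the submitters' processing notes. Their versions, the annotation, the strand setting and the handling of multi-mapped reads are not stated there. Per the labels' protocols, polyadenylated RNA was made into double-stranded DNA and libraries with a transposase kit that does not mark strand, so reads of a gene and its antisense partner cannot be told apart. Small counts (1 to 10) were even in 64.7% to 67% of cases in Trim27 libraries and 68.4% to 72% in GFP libraries. If pairs of reads were counted as 2, counting intervals are too narrow. One line without a gene name held 0 counts and was left out.

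The counts went through edgeR 4.0.16 in R 4.3.3, with filterByExpr (minimum count 10, minimum total 15), TMM scaling and the robust quasi-likelihood test without covariates, 2-sided, with Benjamini-Hochberg adjustment over the 11040 genes kept and a threshold of 0.05. CPM are relative to the TMM-scaled library. Standard errors were derived from each fitted change and its F value. The procedure was also run on simulated data, with the outcome not given here. Transcript lengths are medians over GENCODE vM21 basic transcripts (GRCm38, not the build of the counts), matched for 32084 genes of the table by symbol and for 895 through an older symbol. Removing a length trend used a lowess curve (span 0.3) per library. DESeq2 1.42.0 and limma 3.58.1 served as alternatives. The replicate numbers are shared by the groups but do not pair the libraries.

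The genes and lists were chosen with earlier results of these data known. Values in every library were given for the 5 most abundant genes, the 4 largest rises and 4 largest falls, and the 2 smallest p in each role. In each further list the 3 smallest p at a mean of at least 3 log2 CPM were named. Mphosph10, Ddx51, Utp23, Spata5, Ttf1 and Taf1b, below that mean, were named besides for their low levels in the GFP group. Every other gene of the 42 is given by its change, and some with group means, a choice made after the values were seen.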

Additional observations from a re-analysis of the deposited data

Results flagged for a closer look

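Of 92 groups of 4 libraries (42 genes in each group, and 4 shares of counts), 6 had 1 library set apart from the other 3 by a gap beyond Dixon's 95% critical value. Chance flags about 1 in 20 such groups. In the Trim27 group, Nop10 was low in replicate 2 (52.9 CPM), Dkc1 was high in replicate 1 (90.4 CPM), Rrp1 was low in replicate 1 (344.4 CPM), Rrp12 was high in replicate 3 (52.0 CPM) and Ddx10 was high in replicate 4 (14.9 CPM). In the GFP group, Rrp9 was low in replicate 4 (241.6 CPM). Without Trim27 replicate 1, Dkc1 and Rrp1 kept their calls. Over the 42 genes, Trim27 replicate 1 was the highest of the Trim27 libraries for 15 and the lowest for 17.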

How the results depend on the processing

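The counts of 18 rises and 19 falls among the 42 genes were equal under DESeq2 size factors, upper-quartile factors, TMM without ribosomal protein genes, no filter, the DESeq2 Wald test, limma-voom and halved counts. No call of a single gene changed in these settings. With 10 CPM required in 4 libraries Noc3l was not tested, and 17 rose and 19 fell. With the replicate number as a block the counts were also 18 and 19. The numbers do not pair the libraries, since same-numbered libraries had correlations of -0.025 to 0.018 after their group means were removed.

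Leaving out each library gave 16 to 18 rises, 19 falls and a median log2 fold change of -0.096 to -0.032. Falls numbered 11 under library size alone (23 rises), 9 of the 29 genes tested when only genes averaging 6 log2 CPM or more were kept, and 4, beside 7 rises, when more than a 1.5-fold change was asked for. The median, -0.039 as reported, was 0.26 under library size alone, 0.17 among abundant genes, 0.0092 with upper-quartile factors, -0.0023 with the DESeq2 Wald test, -0.32 with the length trend removed and 0.085 with that trend fitted on abundant genes. Among the 29 genes without exon overlap, 13 rose and 13 fell (median -0.06).

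Single genes with a call before or after turned in 4 settings. Nop16, Mybbp1a and Bysl, without a call on either side, also crossed 0 in others, by at most 0.029. Under library size alone Fbl was at 0.071, Nop16 at 0.28, Nolc1 at 0.0088, Pes1 at 0.042, Gnl3 at 0.052, Nip7 at 0.089, Noc4l at 0.25, Ebna1bp2 at 0.23 and Mybbp1a at 0.28. Among abundant genes only, Fbl was at 0.012, Nop16 at 0.23, Nip7 at 0.031, Noc4l at 0.19, Ebna1bp2 at 0.17 and Mybbp1a at 0.22. With the length trend removed Ncl was at -0.14, Nop16 at 0.31, Wdr12 at -0.094, Rrp1 at -0.081, Rrp9 at -0.007, Ddx21 at -0.40, Nip7 at 0.26 and Bysl at -0.47. With the trend fitted on abundant genes Fbl was at 0.093, Nop16 at 0.50 and Nip7 at 0.46. The cause was not tested. Annotated lengths, such as 8202 bases for Ncl, 5836 for Imp4, 3854 for Bysl and 868 for Nop56, may differ from the transcripts present. Heatr1 and Noc3l rest on 23 and 18 counts over the GFP libraries.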
